A study of Mus musculus with 32 samples.

Results

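The genes described here are 9 markers of microglia, the resident macrophages of the brain, chosen by symbol: Cx3cr1, P2ry12, Csf1r, Trem2, Tmem119, Aif1, C1qa, C1qb and C1qc. They are 9 of the 55573 genes in the count table of cultured mouse hippocampal neurons, and all 9 were found once each. Their values say in which compartment and in which libraries of a neuronal preparation RNA of these genes was found.

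RNA-seq covered 16 libraries in 8 groups of 2, made from 50 ng of total RNA each: soma and neurites of wild-type (WT, C57BL/6) and Mettl3 KO (Mettl3 flox/flox) neurons, left untreated (Ctrl) or depolarized with KCl. Hippocampi of the newborn pups of a litter were pooled, both sexes together, and the 2 replicates of a group came from different litters, while Ctrl and KCl cultures shared a litter. Neurons grew for 15 days on porous inserts, with Ara-C added early to limit glial growth, and neurites were collected from below the membrane and soma from above it, where neurites can also lie. Cultures of both genotypes received an AAV carrying Cre under the hSyn promoter at day 7, all were silenced with TTX (1 µM) and D-AP5 (50 µM) over 16 h, and the KCl groups then received 55 mM KCl for 2 h. The hSyn promoter drives expression in neurons, so the deletion was not aimed at microglia. A soma and a neurite library that share genotype, treatment and replicate number are called 1 insert here. The methods describe such pairs, but the labels do not state that the number marks a shared insert, and p-values measure the spread between these libraries.

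Microglia arise from yolk sac progenitors, settle in the brain before birth and depend on signalling through the receptor Csf1r, whose ligands Csf1 and Il34 come from other brain cells. They sense neurons through the fractalkine receptor Cx3cr1 and the nucleotide receptor P2ry12, take up debris and lipids through Trem2, and are the main brain source of C1q, the first component of the classical complement pathway, which tags synapses for removal. In brain tissue the 9 genes are used as markers of microglia and related macrophages, not of neurons. In bulk libraries, fewer cells of a type and less RNA per cell cannot be told apart.

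The 9 genes lie on 6 chromosomes of GRCm38, all protein-coding. The 3 C1q chain genes lie side by side on chromosome 4, C1qb from 136880129 to 136886187, C1qc from 136889804 to 136893065 and C1qa from 136895917 to 136898803, all on the minus strand. Cx3cr1 (ENSMUSG00000052336) spans 168.3 kb of chromosome 9 (119901616 to 120069879) in the deposited annotation, with 9 other genes inside that span, and P2ry12 (ENSMUSG00000036353) spans 46.6 kb of chromosome 3. Csf1r (ENSMUSG00000024621) shares 873 of its 5774 exon bases, 15.1%, with Hmgxb3 on the opposite strand. Counting was not stated to use strand, so reads from the shared bases cannot be told apart. Cx3cr1 shares 78 exon bases with Gm33858 and P2ry12 shares 9 with Med12l, and the other 6 genes share none.

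Promoter sequences are shown for those of the 6 searched members whose start regions hold a match to AGGAAGT. This is a core of the sites bound by PU.1 (Spi1), the ETS factor that sets the macrophage program. RefSeq promoters of GRCm38.p6, 250 bases before to 50 after the start, were searched for 6 of the 9 genes. Csf1r, Tmem119 and C1qa were not in this set, and their start regions are not described here. The motif was searched on both strands (ACTTCCT is its reverse) and was found in 3 of the 6, P2ry12, C1qb and C1qc, against 9.35% of all 32851 promoters of that length. It starts 52 bases before the start of P2ry12, 53 before that of C1qb and 195 before that of C1qc. A match is a description of letters, and the windows of Cx3cr1, Aif1 and Trem2 hold none. The sequences run 5′ to 3′ on the strand of the gene, the minus strand in all 3, with the motif in capitals.
P2ry12, chr3:59262936-59263235: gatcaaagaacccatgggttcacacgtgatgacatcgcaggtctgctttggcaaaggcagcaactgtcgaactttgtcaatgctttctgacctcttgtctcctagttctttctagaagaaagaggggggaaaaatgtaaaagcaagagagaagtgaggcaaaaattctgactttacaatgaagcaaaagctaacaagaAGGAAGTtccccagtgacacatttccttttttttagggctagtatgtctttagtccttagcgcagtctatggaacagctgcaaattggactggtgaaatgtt
C1qb, chr4:136886151-136886450: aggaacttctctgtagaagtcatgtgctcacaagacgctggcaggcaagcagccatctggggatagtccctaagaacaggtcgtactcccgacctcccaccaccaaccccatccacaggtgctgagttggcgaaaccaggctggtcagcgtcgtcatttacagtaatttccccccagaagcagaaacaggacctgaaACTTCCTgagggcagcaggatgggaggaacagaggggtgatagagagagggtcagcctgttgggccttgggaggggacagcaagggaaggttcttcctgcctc
C1qc, chr4:136892865-136893164: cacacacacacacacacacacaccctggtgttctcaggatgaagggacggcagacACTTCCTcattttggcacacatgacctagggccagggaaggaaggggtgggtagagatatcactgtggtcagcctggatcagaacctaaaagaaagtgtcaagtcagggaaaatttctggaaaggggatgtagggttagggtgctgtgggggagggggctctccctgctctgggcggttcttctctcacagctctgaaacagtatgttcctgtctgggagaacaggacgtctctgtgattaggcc

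Counts were scaled to CPM (counts relative to library size) with TMM factors over the 16 libraries. Library totals ran from 33789183 to 71394235 counts. All 9 genes were detected in all 16 libraries, at levels that were low in 14 of them and high in the soma and neurite library of 1 insert, KCl-treated Mettl3 KO insert 1. That insert differed from its replicate across the transcriptome: the SD of the log2 ratio between replicates was 1.15 in soma and 1.53 in neurites. The SD was 0.225 to 0.423 in the 4 WT groups, but 1.07 in soma and 0.5575 in neurites of untreated Mettl3 KO. In soma this SD thus does not set KCl-treated Mettl3 KO apart from untreated Mettl3 KO. Results that rest on insert 1 are given with and without it. The targeted gene Mettl3 measured 16.7 and 17.3 CPM in untreated WT soma against 8.69 and 11.6 in untreated Mettl3 KO soma, and 12.3 and 12.5 in untreated WT neurites against 4.15 and 6.77 in untreated Mettl3 KO neurites. It was lower in both KO groups without overlap, yet the edgeR adjusted p was 0.6246 in soma and 0.397 in neurites over all 16 libraries. These counts cover the whole gene, while the paper reports loss of the floxed exon alone. It also reports near complete loss of METTL3 protein in such cultures.

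**Figure D1:**
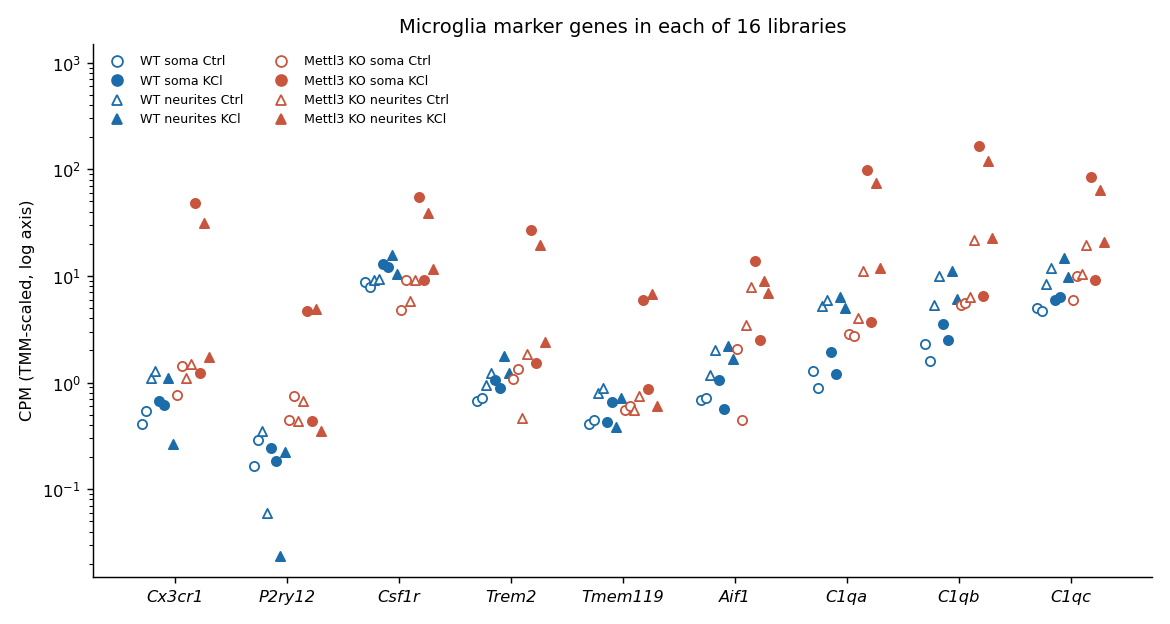
Level of each of the 9 microglia marker genes in CPM (TMM-scaled, log axis) in each of the 16 libraries; circles are soma, triangles neurites, open symbols Ctrl, filled symbols KCl, blue WT and red Mettl3 KO. The soma and neurite libraries of KCl-treated Mettl3 KO insert 1 hold the highest values of all 9 genes, from 4.72 CPM for P2ry12 to 165 CPM for C1qb in soma.

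Of the receptors by which microglia read neurons, Cx3cr1 was low and P2ry12 close to the detection limit outside that insert. In WT, Cx3cr1 measured 0.410 and 0.540 CPM in Ctrl soma, 1.105 and 1.28 in Ctrl neurites, 0.670 and 0.611 in KCl soma, and 1.09 and 0.264 in KCl neurites. In Mettl3 KO it measured 0.762 and 1.44 in Ctrl soma, 1.11 and 1.504 in Ctrl neurites, 1.23 in soma and 1.75 in neurites of KCl insert 2, and 48.3 in soma and 31.4 in neurites of KCl insert 1. Cx3cr1 in insert 1 was thus 27.6 and 17.9 times the highest of the other 14 libraries, the widest gap of the 9 genes. P2ry12, the lowest of the 9, had between 1 and 40 counts in the 14 other libraries and was at or under 3 counts in 2 of them, against 339 and 294 counts in insert 1. Those 2 libraries, WT Ctrl neurite replicate 2 and WT KCl neurite replicate 1, are too shallow for a ratio between single libraries of this gene.

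Of the receptors of survival and debris signals, Csf1r had a higher base level outside insert 1 than Trem2. Csf1r, the receptor tyrosine kinase for Csf1 and Il34, measured 7.82 to 15.8 CPM in the 8 WT libraries, 4.78 to 11.6 in the 6 other Mettl3 KO libraries, and 55.1 and 39.2 in insert 1. Its rise in insert 1 over the highest other library was 3.48-fold in soma and 2.48-fold in neurites, and only Aif1 had a smaller one. Trem2, the lipid and debris receptor that signals through the adaptor Tyrobp, measured 0.666 to 1.78 CPM in WT and 0.461 to 2.42 in the 6 other KO libraries, against 27.0 and 19.5 in insert 1. Trem2 was 11.2-fold and 8.06-fold above the highest other library there.

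Tmem119, a membrane protein used to tell microglia from other macrophages, measured 0.380 to 0.893 CPM in the 14 other libraries and 5.89 and 6.82 in insert 1. Aif1, which encodes the actin-binding protein Iba1, ranged among the other libraries from 0.448 CPM in Mettl3 KO Ctrl soma replicate 2 to 7.88 in Mettl3 KO Ctrl neurite replicate 2, the soma and neurites of 1 insert. Insert 1 held 13.7 and 8.95 CPM of Aif1, only 1.74 and 1.14 times that highest value.

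The 3 C1q chains, which assemble into 1 protein, had the highest mean levels per length over the 14 libraries outside insert 1, although in WT soma Csf1r averaged 1.81 CPM per kb and C1qa 1.27. In WT, C1qa measured 1.28 and 0.890 CPM in Ctrl soma, 5.21 and 5.98 in Ctrl neurites, 1.94 and 1.19 in KCl soma, and 6.36 and 4.99 in KCl neurites. C1qb measured 2.29 and 1.60 in Ctrl soma, 5.39 and 9.91 in Ctrl neurites, 3.54 and 2.52 in KCl soma, and 11.1 and 6.06 in KCl neurites. C1qc measured 4.97 and 4.73 in Ctrl soma, 8.47 and 11.9 in Ctrl neurites, 5.88 and 6.31 in KCl soma, and 14.9 and 9.77 in KCl neurites. For each chain, both neurite libraries lay above both soma libraries with and without KCl. In insert 1 the chains reached 99.3, 165 and 85.0 CPM in soma and 73.8, 119 and 64.6 in neurites, in the order C1qa, C1qb and C1qc.

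Per kilobase of exon, the order of levels over the 14 other libraries was C1qb (7.25 ± 6.09 CPM per kb, SD, n = 14), C1qc (5.27 ± 2.62), C1qa (4.40 ± 3.29), Csf1r (1.68 ± 0.488), Aif1 (1.56 ± 1.51), Tmem119 (0.266 ± 0.0729), Trem2 (0.248 ± 0.107), Cx3cr1 (0.218 ± 0.0989) and P2ry12 (0.129 ± 0.0815). The ranges of all neighbours in this order overlap, so no neighbouring pair is separated by its spread. In both libraries of insert 1, Cx3cr1 stood in the fourth place, not the eighth (10.7 and 6.96 CPM per kb), above Csf1r (9.54 and 6.79), and C1qa passed C1qc.

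The share of each gene in the summed CPM of the 9 also varied between libraries. Csf1r gave 44.1% to 48.6% in the 4 WT soma libraries, 12.3% to 48.6% over all 14 libraries outside insert 1, and 10.9% and 10.6% in the soma and neurites of insert 1. C1qb gave 9.04% to 12.8% in WT soma, 9.04% to 29.2% over the 14, and 32.7% and 32.4% in insert 1. Cx3cr1 gave 0.747% to 4.50% over the 14 and 9.57% and 8.51% in insert 1. For Csf1r and C1qb, the Mettl3 KO neurite libraries closest to insert 1 came near its shares, while the shares of Cx3cr1 lay far apart. Among the C1q chains alone, per length, C1qc made up 24.7% to 51.3% in the 14 other libraries and 15.1% and 15.6% in insert 1. C1qc and Csf1r thus took a larger share of the members' RNA in WT soma than in insert 1. The part of reads from Hmgxb3 (21.3 to 47.2 CPM over the 16 libraries) in the level of Csf1r was not tested.

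Insert 1 was not raised in microglial genes alone. Both of its libraries lay above all 14 others for 9 of the 9 members and for 18.8% of the 23335 genes whose counts averaged 10 or more, and at least 4-fold above them for 6 of the 9 members and for 1.76% of genes. The 3 members that missed 4-fold were Csf1r, Aif1 and C1qc. These counts describe 1 insert, with no replicate, and carry no test. Of 33 other genes of microglia and macrophages, 30 lay above all 14 other libraries, with a summed level of 1335 and 1123 CPM against 77.0 to 273. The lysozyme gene Lyz2 measured 461 and 422 CPM against at most 40.7, and the lysosomal membrane gene Laptm5 measured 153 and 104 against at most 56.7.

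Markers of border macrophages, the macrophages of meninges and perivascular spaces, were also highest there, with a summed level of 133 and 105 CPM against 2.701 to 13.8, but only 4 of 8 lay above all other libraries. The mannose receptor gene Mrc1 measured 62.6 and 44.5 CPM against at most 2.09, and the chemokine gene Pf4 measured 20.1 and 18.8 against at most 0.540. The monocyte genes Ccr2 and Ly6c2 and the macrophage gene Cd163 had mean counts under 10 over the 16 libraries, as did Siglech, a lectin gene of microglia.

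Other cell types moved in the same insert. All 8 genes of the oligodendrocyte lineage lay above the 14 other libraries, with summed levels of 3553 CPM in soma and 7039 in neurites against 57.9 to 203, and the myelin gene Mbp was among those with the highest counts. Astrocyte markers summed to 9592 and 18570 CPM against 1201 to 7152, with 6 of 11 above all others. Markers of fibroblasts and vessels summed to 157 and 758 CPM against 37.0 to 190, with 7 of 12 above all others. Neuronal markers went the other way, to 1444 and 830 CPM against 3275 to 5278, with 9 of 10 below all others. Snap25, a synaptic SNARE protein gene, measured 266 and 120 CPM in insert 1 against 370 to 1288. The part of each of these in the microglial values was not tested.

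**Figure D2:**
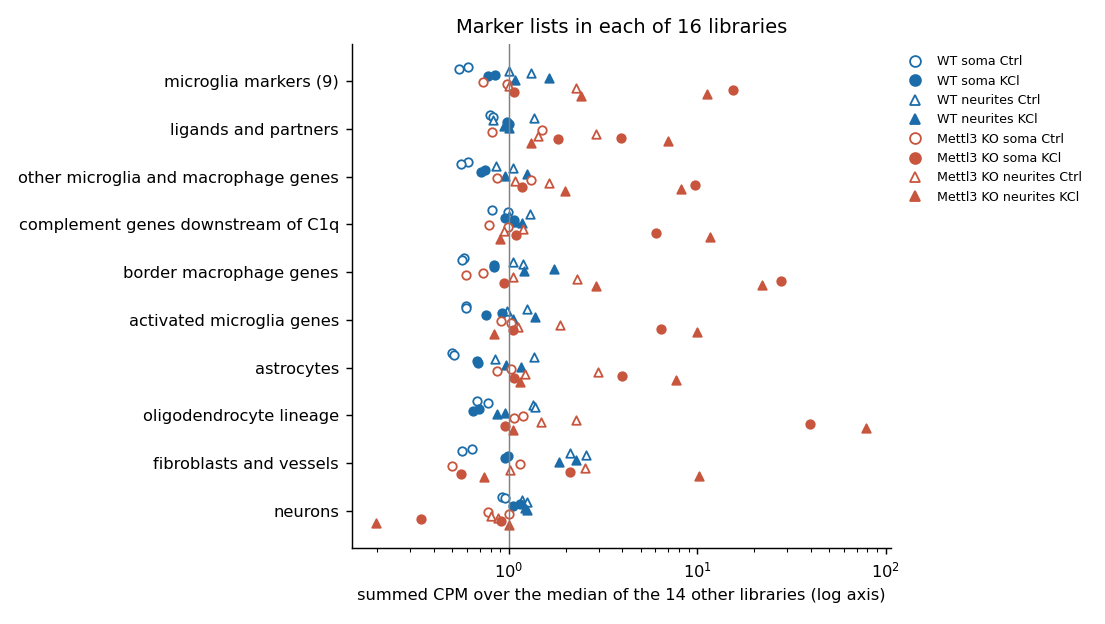
Summed CPM of 10 gene lists in each of the 16 libraries, divided by the median of the 14 libraries outside KCl-treated Mettl3 KO insert 1 (log axis), with symbols and colours for compartment, treatment and genotype as in the legend. In that insert the 9 microglia markers sit at 15.5 times the median in soma and 11.3 times in neurites, the oligodendrocyte list at 39.8 and 78.8 times, and the neuronal list at 0.343 and 0.198 times.

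Without insert 1, the summed CPM of the 9 genes still ranged from 17.8 in WT Ctrl soma replicate 2 to 79.1 in KCl-treated Mettl3 KO neurite replicate 2, with a median of 32.6. The 4 WT soma libraries held 17.8 to 27.7 CPM and the 4 WT neurite libraries 32.6 to 53.6, without overlap.

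In WT, the comparison of neurites with soma asks whether these genes are found with the RNA below the membrane. Untreated, the 3 C1q chains were higher in neurites, and no other member passed the edgeR test. DESeq2 called the 3 chains and also Aif1 (log2 1.17, DESeq2 adjusted p = 0.0401). Genes were tested with the quasi-likelihood F-test of edgeR (two-sided, with p adjusted over 23200 genes after Benjamini and Hochberg) on the 8 WT libraries and called at an adjusted p of at most 0.05 and a change of at least 1.5-fold. Of the 9 members, 3 were called higher and 0 lower, against 13.5% of all genes called. C1qa was 4.90-fold higher in neurites (log2 2.29, SE 0.29, adjusted p = 0.000851), C1qb was 3.73-fold higher (log2 1.90, SE 0.38, adjusted p = 0.00767) and C1qc 2.01-fold higher (log2 1.01, SE 0.24, adjusted p = 0.0176). Both neurite libraries lay above both soma libraries for 8 of the 9 members and for 31.1% of genes.

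The other members showed smaller or less certain differences. Aif1 differed by a log2 of 1.12 (SE 0.39) at an adjusted p of 0.0686, Cx3cr1 by 1.26 (SE 0.53, adjusted p = 0.122), Tmem119 by 0.91 (SE 0.41, adjusted p = 0.148) and Trem2 by 0.58 (SE 0.33, adjusted p = 0.244). Csf1r, with 226 to 860 counts outside insert 1, differed by 0.08 (SE 0.20), and Hmgxb3 by 0.04 (SE 0.22). P2ry12 differed by −0.10 (SE 0.80), on too few counts to show a change of the size seen for C1q. The median log2 difference of the 9 was 1.01, beside −0.10 over all genes tested.

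With KCl the same 3 chains were called, against 9.54% of genes. C1qa was 3.69-fold higher in neurites (log2 1.89, SE 0.29, adjusted p = 0.00277), C1qb was 2.88-fold higher (log2 1.53, SE 0.37, adjusted p = 0.0234) and C1qc 2.04-fold higher (log2 1.03, SE 0.24, adjusted p = 0.0204). Aif1 stood just outside the threshold in edgeR, with a log2 difference of 1.27 (SE 0.38) and an adjusted p of 0.0544. DESeq2 called Aif1 as well (log2 1.24, DESeq2 adjusted p = 0.0278). Trem2 differed by 0.63 (SE 0.32), Csf1r by 0.08 (SE 0.20), Cx3cr1 by 0.08 (SE 0.54), Tmem119 by 0.02 (SE 0.42) and P2ry12 by −0.70 (SE 0.87). Both neurite libraries lay above both soma libraries for 5 of the 9 members, the C1q chains, Trem2 and Aif1, and for 26.1% of genes. Fitted on all 16 libraries, edgeR called 0 genes of any kind in either WT comparison, members included. The edgeR adjusted p of C1qa was then 0.712 without and 0.991 with KCl. With any 1 library of the compared groups left out, C1qa remained called in both treatments. In untreated cultures C1qb was not called without soma or neurite replicate 2 (edgeR adjusted p = 0.0733 and 0.0572), and C1qc was not called without either of these or without soma replicate 1 (0.103, 0.116 and 0.0756). With KCl, C1qb was not called without soma replicate 2 or neurite replicate 1 (0.0892 and 0.201), and C1qc was not called without soma or neurite replicate 1 (0.0544 and 0.185).

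**Figure D3:**
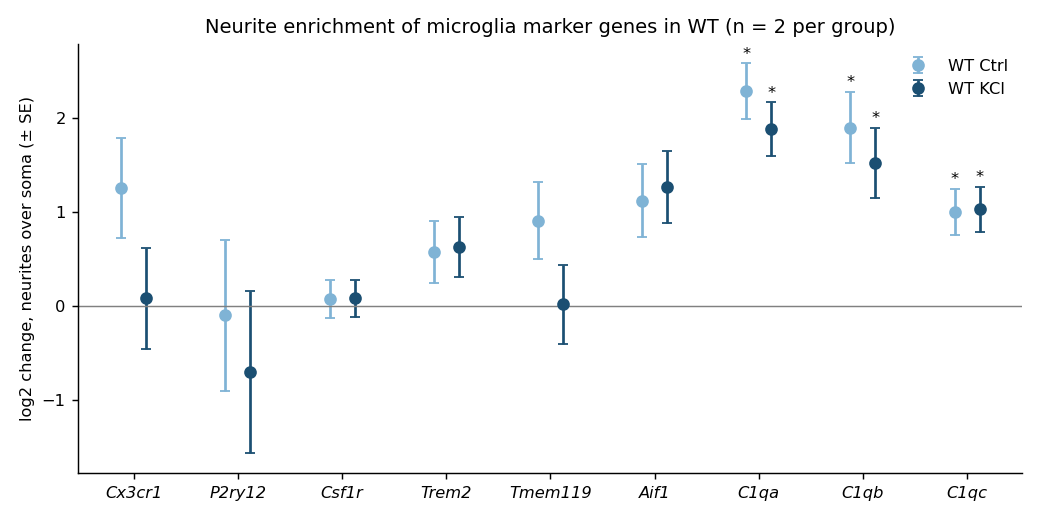
Log2 change of neurites over soma for each of the 9 genes in WT Ctrl (light) and WT KCl (dark) cultures, with the standard error of the edgeR fit and an asterisk at each called gene. C1qa, C1qb and C1qc lie between 1.01 and 2.29 with asterisks in both treatments, while Csf1r lies at 0.08 in both.

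Some other myeloid genes were called higher in neurites as well. Of the 33 other microglia and macrophage genes, 28 were tested in WT, and 9 were called higher in neurites without KCl and 7 with KCl, 0 lower in either, with median log2 differences of 0.85 and 0.78. Lyz2 was 3.03-fold higher without KCl (log2 1.60, SE 0.28) and 2.98-fold higher with KCl (log2 1.58, SE 0.28). Laptm5 differed by 0.72 (SE 0.25) and 0.61 (SE 0.25) and was called in neither. Of the genes of activated microglia, 4 of 6 tested were called higher without KCl and 3 with KCl, and the receptor kinase gene Axl was called without KCl (log2 1.37, SE 0.30) but Cd9 (0.31, SE 0.15) and Gpnmb (0.72, SE 0.24) were not. Of the border macrophage genes, Ms4a7 alone of 4 tested was called, at a log2 of 1.88 (SE 0.32) without and 1.20 (SE 0.31) with KCl, and Mrc1 differed by −0.23 (SE 0.40) and −0.11 (SE 0.39).

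The complement genes that act after C1q were mixed. Of 9 tested, 4 were called higher in WT Ctrl neurites and 3 in WT KCl neurites. The C1 inhibitor gene Serping1 was called in both (log2 0.88, SE 0.16, and 0.86, SE 0.16), while C3 (0.19, SE 0.26, and −0.05, SE 0.26) and C4b (−0.19, SE 0.42, and −0.30, SE 0.42) were not. Of the ligands and partners of the members, 0 of 7 tested were called in either WT comparison by edgeR, with 4 without KCl and 1 with KCl past the fold at an unadjusted p. The largest of these differences was that of Tyrobp, the adaptor of Trem2, at a log2 of 1.33 (SE 0.50, adjusted p = 0.0854) without KCl and 1.43 (SE 0.49, adjusted p = 0.0811) with KCl. The neuronal ligand of Cx3cr1, Cx3cl1, differed by −0.57 (SE 0.22) and −0.51 (SE 0.22), and the neuronal ligand of Csf1r, Il34, by −0.08 (SE 0.15) and −0.14 (SE 0.15). Csf1 differed by 0.60 (SE 0.29) and 0.39 (SE 0.30), Apoe, a lipid carrier bound by Trem2, by 0.60 (SE 0.20) and 0.14 (SE 0.19), and the C1 protease genes C1ra and C1s1 by 0.65 (SE 0.29) and 1.01 (SE 0.34) without KCl and by 0.08 (SE 0.29) and 0.38 (SE 0.33) with KCl. The growth factor gene Tgfb1 did not reach the count minimum in WT.

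Some glial and vascular markers were also called higher in WT neurites. Without KCl, 5 of 11 astrocyte genes, 2 of 7 oligodendrocyte genes and 6 of 11 genes of fibroblasts and vessels were called higher and 0 lower, and with KCl 3, 2 and 1. The median log2 difference of the astrocyte genes was 0.70 without KCl and −0.15 with KCl, where 4 of 11 were positive, and that of the fibroblast and vessel genes was 1.17 and 0.37. Gfap, the astrocyte intermediate filament gene, differed by a log2 of 1.44 (SE 0.15) and 1.14 (SE 0.15), the pericyte gene Rgs5 by 2.31 (SE 0.14) and 1.54 (SE 0.14), and Olig1 by 1.90 (SE 0.25) and 1.18 (SE 0.25). Without KCl, summed astrocyte markers measured 1201 and 1218 CPM in soma and 2030 and 3267 in neurites. The part of non-neuronal cells below the membrane in the C1q values was not tested. Of the neuronal genes, Map2, a dendritic mRNA, was called higher in neurites (log2 1.73, SE 0.14, and 1.34, SE 0.14), while Snap25 (−0.17 and −0.10) and Tubb3 (0.02 and 0.06) were not called.

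In Mettl3 KO cultures the same comparison called 0 of the 9 members without KCl and 0 with KCl, where it called 0% of the 23099 genes in each. At an unadjusted p with 1.5-fold it found 0 members in both, and 1214 and 146 genes. DESeq2 called 0 members in both, and 13 genes without KCl and 0 with KCl. Insert by insert, as differences of log2 CPM between neurites and soma, C1qa differed by 0.47 and 2.02 in the 2 untreated KO inserts, by 1.68 in KCl insert 2 and by −0.43 in KCl insert 1. C1qb differed by 0.26, 1.96, 1.83 and −0.47 in that order, and C1qc by 0.82, 0.95, 1.18 and −0.40. The C1q chains and Aif1 were thus higher in neurites in 7 of the 8 inserts of both genotypes and lower in KCl-treated Mettl3 KO insert 1. Csf1r lay between −0.49 and 0.33 over the 8 inserts and was higher in neurites in 5.

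The change of neurite enrichment was fitted with 1 term per insert and called at an unadjusted p of at most 0.05 and 1.5-fold. KCl changed the neurite enrichment of 0 of the 9 members in WT, against 3.36% of genes, with a median log2 change of −0.37 beside 0.05 over all genes. Mettl3 KO changed that of 0 of 9 in untreated cultures, against 4.29% of genes, with a median of −0.84 beside −0.03. DESeq2 also called 0 of 9 in each. Leaving out 1 library gave up to 2 members in either comparison, for KCl without WT Ctrl soma replicate 1 and for Mettl3 KO without replicate 2 of its Ctrl soma or neurites.

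C1q, which was called higher in WT neurites, and Csf1r, which was not, were then set against each other within each library. The balance was the log2 of the geometric mean CPM of C1qa, C1qb and C1qc over the CPM of Csf1r, with 0.5 added to each. In soma it was −1.63 and −1.74 in WT Ctrl, −1.75 and −1.96 in WT KCl, −0.08 and −0.71 in Mettl3 KO Ctrl, and 1.01 and −0.57 in Mettl3 KO KCl. In neurites it was −0.52 and −0.05 in WT Ctrl, −0.61 and −0.60 in WT KCl, 0.15 and 0.84 in Mettl3 KO Ctrl, and 1.07 and 0.60 in Mettl3 KO KCl. The balance was higher in neurites than in soma in 8 of 8 inserts, by 1.04 ± 0.59 log2 units (SD, n = 8 inserts). C1q and Csf1r were paired for their difference in WT, and Ctrl and KCl inserts share litters, so this is a description with no test. The difference was 0.06 in KCl-treated Mettl3 KO insert 1 and 0.23 in Mettl3 KO Ctrl insert 1, and 1.11 to 1.70 in the other 6. With Trem2 in place of Csf1r, chosen after seeing the data, the difference was 0.92. Csf1r shares exon bases with Hmgxb3, and the part of Hmgxb3 reads in the balance was not tested. KCl-treated Mettl3 KO insert 1, with the highest summed level of the 9 genes, had the highest balance in both compartments.

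**Figure D4:**
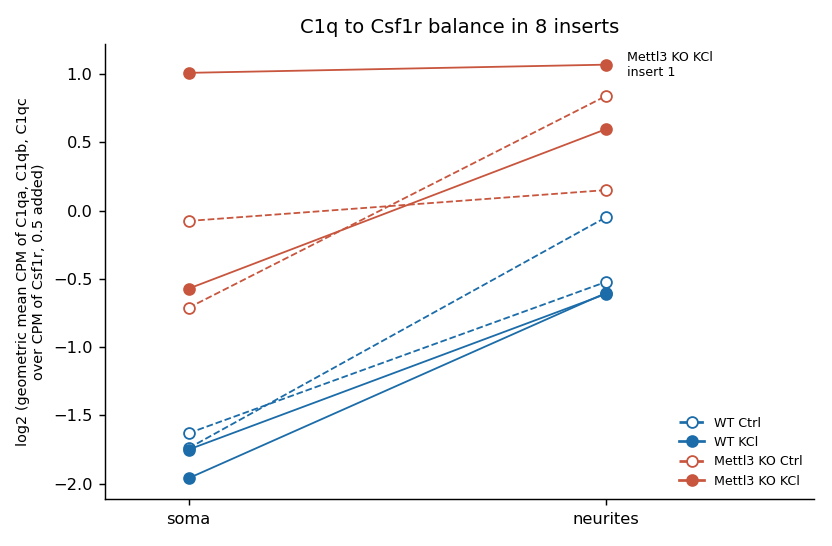
Log2 ratio of C1q to Csf1r in the soma and neurite library of each of 8 inserts, joined by a line per insert (dashed Ctrl, solid KCl, blue WT, red Mettl3 KO). All 8 lines rise, by 0.06 in KCl-treated Mettl3 KO insert 1 to 1.70 in WT Ctrl insert 2, and the 4 WT soma values lie lowest, from −1.96 to −1.63.

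KCl depolarization raised no member past the threshold in WT. The response was called at an adjusted p of at most 0.05 and 2-fold, and edgeR called 0 of the 9 members in soma, against 6.81% of genes, and 0 of 9 in neurites, against 4.94%. DESeq2 called 0 of 9 in each, and 0 members passed at an unadjusted p with 2-fold. Csf1r came closest in p: it measured 8.83 and 7.82 CPM in Ctrl soma and 12.9 and 12.2 in KCl soma, and 9.13 and 9.26 in Ctrl neurites and 15.8 and 10.4 in KCl neurites, without overlap in either. Its log2 change was 0.59 in soma (SE 0.20, edgeR unadjusted p = 0.0141, adjusted p = 0.0815) and 0.59 in neurites (SE 0.20, unadjusted p = 0.0146, adjusted p = 0.107). Hmgxb3, whose exons overlap those of Csf1r, changed the other way, by −0.55 in soma (SE 0.22) and −0.53 in neurites (SE 0.22).

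The remaining members changed by log2 values between −0.08 (P2ry12) and 0.62 (C1qb) in soma and between −0.75 (Cx3cr1) and 0.55 (Trem2) in neurites. Their edgeR adjusted p was at least 0.325. The median of the 9 was 0.43 in soma and 0.25 in neurites, beside 0.01 over all genes in each. Among the other microglia and macrophage genes, 1 of 28 was called higher in soma and 0 in neurites, and 0 of 7 ligands and partners were called in either.

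Mettl3 KO was compared with WT in untreated cultures on all 16 libraries, at an adjusted p of at most 0.05 and 1.5-fold. In soma edgeR called 0 of the 9 members, against 0.189% of genes, and in neurites 0 of 9, against 0.171%. At an unadjusted p with 1.5-fold 0 members passed in either, and DESeq2 called 0 of 9 in each. Without insert 1 and its 2 libraries, edgeR again called 0 of 9 in each, with 411 and 259 genes called, none of them a member.

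In soma the levels still did not overlap for most members. Both Mettl3 KO Ctrl soma libraries lay above both WT Ctrl soma libraries for 7 of the 9, all but Csf1r and Aif1, and for 22.7% of genes, and below them for 0 of 9, against 26.1% of genes. C1qa measured 2.88 and 2.72 CPM in Mettl3 KO Ctrl soma against 1.28 and 0.890 in WT (log2 1.39, SE 1.12), and C1qb 5.29 and 5.52 against 2.29 and 1.60 (log2 1.49, SE 1.12). Fitted without insert 1, these differences were 1.36 (adjusted p = 0.163) and 1.46 (adjusted p = 0.205). Cx3cr1 differed by 1.22 (SE 1.36), P2ry12 by 1.41 (SE 1.25), Trem2 by 0.83 (SE 1.11), C1qc by 0.72 (SE 0.79), Tmem119 by 0.45 (SE 0.97), Aif1 by 0.90 (SE 0.83) and Csf1r by −0.25 (SE 0.70). The median of the 9 was 0.90, beside 0.02 over all genes tested.

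Astrocyte markers stood higher in the same libraries: 11 of 11 had a positive log2 difference, with a median of 0.95, and their summed level was 2062 and 2473 CPM in Mettl3 KO Ctrl soma against 1201 and 1218 in WT. The genotypes came from different litters, so litter and genotype cannot be told apart.

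In neurites the genotypes overlapped for 5 of the 9 members. Both Mettl3 KO Ctrl neurite libraries lay above both WT ones for P2ry12 and Aif1, against 24.1% of genes, and below them for Csf1r and Tmem119, against 23.7% of genes. Aif1 measured 3.46 and 7.88 CPM against 1.18 and 2.02 in WT (log2 1.81, SE 0.83, adjusted p = 0.686). P2ry12 differed by 1.35 (SE 1.31), C1qb by 0.86 (SE 1.09), C1qc by 0.53 (SE 0.78), C1qa by 0.43 (SE 1.08), Cx3cr1 by 0.11 (SE 1.34), Trem2 by 0.09 (SE 1.12), Csf1r by −0.32 (SE 0.71) and Tmem119 by −0.39 (SE 0.97). The median was 0.43, beside 0.01 over all genes.

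The genes whose pattern over the 16 libraries was most like that of the members were, by Pearson r of log2 CPM with the mean of the 9 standardized profiles, Mpeg1 (0.984), Stab1 (0.978), Ctsz (0.976), Lgals9 (0.973), Cd84 (0.972), Tlr2 (0.971), Ctss (0.966), Rab32 (0.963), Arpc1b (0.962) and Gins2 (0.960). The r are descriptions over shared libraries, and these include insert 1, which holds the highest value of each gene. Without its 2 libraries the order was Myo1f (0.963), Lcp2 (0.937), Cd200r1 (0.932), Ms4a7 (0.932), Pld4 (0.931), Ctss (0.929), Plek (0.923), Mpeg1 (0.920), Cd84 (0.912) and Arhgdib (0.907), with 3 of 10 genes shared. Over those 14 libraries the r with the mean profile was 0.926 for C1qa, 0.955 for C1qb and 0.936 for C1qc, and 0.227 for Csf1r and 0.190 for P2ry12. Each member is part of that mean, and 3 of its 9 profiles are C1q chains, so the r of members are partly built in.

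DART-seq, in which an m6A-binding domain fused to a deaminase edits cytosines beside methylated adenosines, gave 1 site named for a member among 18231 sites in 5643 RNAs. The site is shown because it bears the name of Cx3cr1 but lies inside another gene: it is at position 119924788 of GRCm38 chromosome 9, on the minus strand, in an intron of Cx3cr1 and 23161 bases from its nearest exon, and within the coding sequence of Wdr48 on the plus strand. Its deposited C-to-U fraction, a mean over libraries, is 0.0217, beside a median of 0.0354 over all sites. The paper set a minimum of reads and of mutations for calling a site, and the depth at this one is not given here. The site and 10 bases on either side, with the edited C and the 2 bases before it in capitals, are as follows.
Cx3cr1 site, chr9:119924778-119924798: ggacttctGACggtaatggag
The deposited DART-seq score of Cx3cr1 is 0.0224 in WT and 0.00457 in Mettl3 KO, and 0.0393 in soma and 0 in neurites. Cx3cl1, the ligand of Cx3cr1, has 12 sites, with deposited scores of 0.320 in WT, 0.116 in Mettl3 KO, 0.244 in soma and 0.469 in neurites. Apoe has 1 site, and the table as used here lists none for the remaining members, ligands and partners. These scores are pooled over libraries, so no replicate error could be given.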

How the data were processed

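The deposited count table gives, per the file headers, whole-number counts of read pairs on the exons of 55573 genes (Ensembl release 97, GRCm38), made by the authors with Flexbar trimming, STAR 2.7.7a (submitters' processing notes) and featureCounts 2.0.1, multi-mapping reads included and no strand option given. Its exon lengths are in bases. In the DART-seq tables, the deposited site value is a C-to-U fraction averaged over WT libraries, the authors' score per RNA sums such values, and the number of sites is the authors' count. Deposited fold changes and p-values of DESeq2 comparisons were not used.

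Counts were scaled by TMM and tested in R 4.3.3 with edgeR 4.0.16 (quasi-likelihood F-test, Benjamini-Hochberg adjustment, genes averaging 10 or more counts over the libraries fitted). WT comparisons were fitted on the 8 WT libraries, Mettl3 KO comparisons on the 8 KO libraries and genotype comparisons on all 16, since replicates of Mettl3 KO spread more widely. The 37 mitochondrially encoded genes, all at 0, were left out. The balance of C1q to Csf1r is given with no test, in place of the sign-flip test planned over 8 inserts, since its genes were chosen for their difference. On simulated WT counts in which 200 of 22909 genes differed 4-fold, the fit of WT Ctrl neurites against soma called 95% of those and 18 unchanged genes. The changed genes were drawn above a higher count minimum than that of the test. Recovery of smaller changes, or at the lowest counts, was thus not measured. Differences by insert used edgeR log2 CPM with a prior count of 2.

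The members, marker lists and tests were chosen with earlier results of these data known. All 9 members are named in 6 of the 10 comparisons, and the others give counts, medians or values by insert. Also named are Mettl3, all measured ligands and partners, the 3 genes of each other list with the highest mean count and the 10 genes most like the members, except for some genes of the other lists that are not reported here. Genes with low counts, Hmgxb3 and the alternatives without KCl-treated insert 1 were named after the values were seen. Alternatives changed the tool (DESeq2 1.42.0), scaling, count filter, length trend, libraries and block, and left out each library. The SE of a log2 change comes from the edgeR fit and carries the spread between libraries. The floor of 3 counts covers counting error only, since PCR reads without molecular identifiers are not independent molecules. MeRIP-seq and imaging data were not analysed here.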

Additional observations from a re-analysis of the deposited data

Results flagged for a closer look

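Among the 8 inserts, the neurite minus soma difference of Aif1 was 4.03 log2 units in Mettl3 KO Ctrl insert 2, apart from the other 7 (a gap of 0.548 of the whole range, above Dixon's critical value for 8). Aif1 measured 0.448 CPM in the soma and 7.88 CPM in the neurites of that insert.

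The neurite minus soma difference of C1qc was −0.396 in KCl-treated Mettl3 KO insert 1, also apart from the others (a gap of 0.592 of the range), which lay between 0.627 and 1.33. The other 7 genes and the balance of C1q to Csf1r, tested the same way, stayed under the critical value. Chance alone sets apart about 1 group in 20.

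The DART-seq score of Cx3cr1 was 0.0224 in WT, above the 0.00457 in Mettl3 KO, in data outside the count comparisons. The 1 site behind it lies in the coding sequence of Wdr48 on the opposite strand. The scores are pooled over libraries and the difference was not tested.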

How the results depend on the processing

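The number of members called by edgeR in WT neurites against soma was 3 in each treatment. DESeq2 called 4 in each, with Aif1 added. Fitted on the compared libraries alone, edgeR called 4 without KCl, with Cx3cr1 added (edgeR adjusted p = 0.0336). On all 16 libraries the edgeR number was 0 without and 0 with KCl, where 0 of all genes were called. With no filter on low counts the number of members was 5 without KCl. Leaving out 1 library gave 1 to 4 without KCl and 1 to 3 with KCl. The other comparisons called 0 members. With no filter on low counts, Mettl3 KO against WT Ctrl soma gave 1, the KCl change in WT neurite enrichment 1 and the Mettl3 KO change 2, and removal of the length trend gave 1 for the last. Leaving out 1 library gave 0 to 1 for the KCl response in WT neurites, 0 to 2 for the KCl change and 0 to 2 for the Mettl3 KO change. The cause of these shifts was not tested. The other 83 of 90 alternatives that did not leave out a library kept the count within 1.5 times, or the sign of the balance, which ran from 0.81 to 1.33 and from 0.945 to 1.18 with 1 insert left out.

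Over the 6 comparisons with values for single members, 392 of 410 alternatives and 176 of 216 with 1 library left out kept sign and call. In WT KCl neurites against soma, Tmem119 turned to −0.0119 with RLE scaling, −0.0058 without the length trend and −0.0002 with a replicate block by insert, and Cx3cr1 to −0.138 with that block. With 1 library left out, signs turned for these ranges of log2 change. WT Ctrl neurites against soma: P2ry12 −1.90 to 0.543. WT KCl neurites against soma: Cx3cr1 −1.27 to 0.80, P2ry12 −3.02 to 0.0735, Csf1r −0.27 to 0.368 and Tmem119 −0.493 to 0.385. KCl response in WT soma: P2ry12 −0.354 to 0.426, Tmem119 −0.0107 to 0.645 and Aif1 −0.259 to 0.591. KCl response in WT neurites: P2ry12 −3.00 to 1.12, Aif1 −0.032 to 0.81, C1qa −0.103 to 0.281 and C1qb −0.273 to 0.784. Mettl3 KO against WT Ctrl soma: Csf1r −0.753 to 0.155 and Aif1 −0.612 to 1.60. Mettl3 KO against WT Ctrl neurites: Cx3cr1 −0.145 to 0.355, Csf1r −0.706 to 0.0059, Trem2 −1.27 to 0.801, C1qa −0.521 to 1.01, C1qb −0.319 to 1.51 and C1qc −0.0014 to 0.934. A lone remaining library was assumed to vary like the other groups.

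With the replicate block, 3 members were called in WT Ctrl and 4 in WT KCl (Aif1 added), and 0 elsewhere. Without it, the KCl and Mettl3 KO changes in neurite enrichment also called 0, and the mean difference of the balance is 1.04 either way. Between the compartments of an insert, replicate differences correlated at −0.142 and 0.0727 in WT and at 0.049 and 0.876 in Mettl3 KO (Ctrl and KCl), so the numbers do not show a pairing throughout. With the WT Ctrl numbers crossed, 3 members and 3057 genes were called. P2ry12, at 1 to 40 counts outside KCl-treated Mettl3 KO insert 1, is limited by depth.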
